A study of Homo sapiens with 16 samples.

Results

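MDA-MB-231 and Hs578T are a pair of triple-negative breast cancer cell lines, and here their resting enhancer landscapes were set against each other in cells that had received no TWEAK, the cytokine that binds the receptor Fn14. The comparison used the 4 lists of H3K27ac peaks from untreated control cells, 2 per line, out of the 16 lists of the series. The other 12 lists came from the same lines treated with TWEAK (10 ng/ml for 48 h, renewed after 24 h) as control cells, and from cells in which the Fn14 gene TNFRSF12A had been knocked out by CRISPR, with or without TWEAK. All cells were seeded 24 h before and kept in low-serum medium for 8 h before treatment, and the untreated control cells carry no knockout that the labels name. The study's methods call its ChIP-seq replicates biological, and whether the controls are single clones or pools is not given in the sources used here. Merging the peaks of the 4 lists at 1 bp gave 53142 regions, of which 1036 had a peak in both MDA-MB-231 lists and neither Hs578T list (MDA-MB-231-only) and 2946 had the opposite pattern (Hs578T-only).

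H3K27ac is acetylation of lysine 27 of histone H3. It marks active promoters and active enhancers, and because enhancers are used in a cell-type-specific way, its distal peaks carry much of what distinguishes one cell type from another. MDA-MB-231 was derived from a pleural effusion of a breast adenocarcinoma and Hs578T from a carcinosarcoma of the breast, and both are known as mesenchymal-like lines. AP-1 (FOS and JUN proteins), TEAD factors, which act with YAP, and RUNX factors are classes of transcription factor often found at enhancers of such cells.

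Distal line-only regions among those with the highest enrichment are shown first, 2 per line, because they carry the clearest presence or absence in these lists. Each line gives the 250 bases at the centre of the region, on the forward strand of hg38, in lower case with AP-1 (TGANTCA), TEAD (GGAATG), RUNX (TGTGGTT) and ETS (CCGGAAG) matches on either strand in capitals. The MDA-MB-231 windows are at chr2:81481399-81481648, between genes and 1152 kb from the start of CTNNA2, and at chrX:131783751-131784000, between genes and 204 kb from IGSF1. The Hs578T windows are at chr6:168326724-168326973, between genes and 6.002 kb from DACT2, and at chr2:78541490-78541739, between genes and 484 kb from REG3G.
MDA-MB-231-only region nearest CTNNA2: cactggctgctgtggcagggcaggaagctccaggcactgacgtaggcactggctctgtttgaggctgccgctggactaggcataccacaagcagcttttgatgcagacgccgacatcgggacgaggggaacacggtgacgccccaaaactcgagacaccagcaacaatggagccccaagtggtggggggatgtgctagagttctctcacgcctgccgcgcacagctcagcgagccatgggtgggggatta
MDA-MB-231-only region nearest IGSF1: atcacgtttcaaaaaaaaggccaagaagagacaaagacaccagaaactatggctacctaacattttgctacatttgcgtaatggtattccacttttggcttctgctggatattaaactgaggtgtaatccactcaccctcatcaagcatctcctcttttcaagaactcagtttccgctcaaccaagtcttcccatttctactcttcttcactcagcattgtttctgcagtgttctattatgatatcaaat
Hs578T-only region nearest DACT2: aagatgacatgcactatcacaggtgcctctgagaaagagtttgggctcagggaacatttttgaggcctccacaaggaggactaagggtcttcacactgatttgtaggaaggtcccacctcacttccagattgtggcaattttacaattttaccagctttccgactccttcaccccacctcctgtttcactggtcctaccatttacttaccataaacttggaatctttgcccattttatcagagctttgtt
Hs578T-only region nearest REG3G: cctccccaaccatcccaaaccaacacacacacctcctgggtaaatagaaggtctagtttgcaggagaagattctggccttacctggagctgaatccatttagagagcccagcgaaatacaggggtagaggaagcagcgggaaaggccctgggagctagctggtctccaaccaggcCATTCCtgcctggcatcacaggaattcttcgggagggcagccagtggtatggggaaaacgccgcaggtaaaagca
The REG3G window holds 1 TEAD match, and the other windows hold none of these motifs. Among the central 250 bases of all 39435 distal regions, 27.4% held the AP-1 letters, 18.4% the TEAD, 8.23% the RUNX and 1.40% the ETS letters.

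Fold enrichment, the mean signal of a peak over its local background as the peak caller gave it, was 17.2 and 16.2 in the MDA-MB-231 lists at the CTNNA2 region. All 6 other MDA-MB-231 lists had a peak there, and 1 of the 6 other Hs578T lists did. It was 9.78 and 9.89 at the IGSF1 region, which was present in all 8 MDA-MB-231 lists and in none of the 8 Hs578T lists. The DACT2 region had 13.1 and 14.4 in the Hs578T lists, and the REG3G region 9.74 and 11.3. The DACT2 region was present in all 6 other Hs578T lists, and also in 2 of the 6 other MDA-MB-231 lists. The REG3G region was present in 4 of the 6 other Hs578T lists and in no MDA-MB-231 list.

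The 4 lists held 40603 and 44585 peaks in MDA-MB-231, covering 68.9 and 82.9 Mb, and 47197 and 45523 peaks in Hs578T, covering 86.6 and 84.3 Mb. MDA-MB-231 replicate 1 was the smallest of the 4. Over all 8 lists per line MDA-MB-231 had the fewer peaks, 42352 against 45856 on average (exact permutation test within conditions, two-sided, Benjamini-Hochberg adjusted over 4 measures, p = 0.00926), and the smaller covered length, 73.1 against 85.6 Mb (exact permutation, adjusted p = 0.00617). The share of peaks within 2 kb of a protein-coding start site was higher in MDA-MB-231, 29.6% against 28.2% (exact permutation, adjusted p = 0.0123), and the number of large domains, 1192 against 1297, did not pass (exact permutation, adjusted p = 0.0679). Read depth is unknown, since a peak list holds no read counts, so the size of a list and the activity of the chromatin cannot be told apart. Peak lists hold no genotypes, so the identity of the lines was not tested.

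Most of the acetylated landscape was held in common. Of the 53142 regions, 34960 (65.8%) had a peak in all 4 lists. MDA-MB-231-only regions made up 1.95% and Hs578T-only regions 5.54%, together 3982 regions. The 2 other ways of pairing the 4 lists, in which each side holds 1 list of each line, gave 668 regions (1.26%) for replicates 1 against replicates 2 and 1044 regions (1.96%) for the crossed pairing, counting both directions. The line-only regions of both lines together were 4.65 times their mean of 856, and most of them were Hs578T-only. In single directions the mixed pairings gave 939, 105, 514 and 154 regions, each below both line-only counts. The 1036 MDA-MB-231-only regions were only slightly more than the 939, while the 2946 Hs578T-only regions were far more. When each list was trimmed to its 39544 most significant peaks, the counts were 1518 and 1760, much closer to each other.

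**Figure D1:**
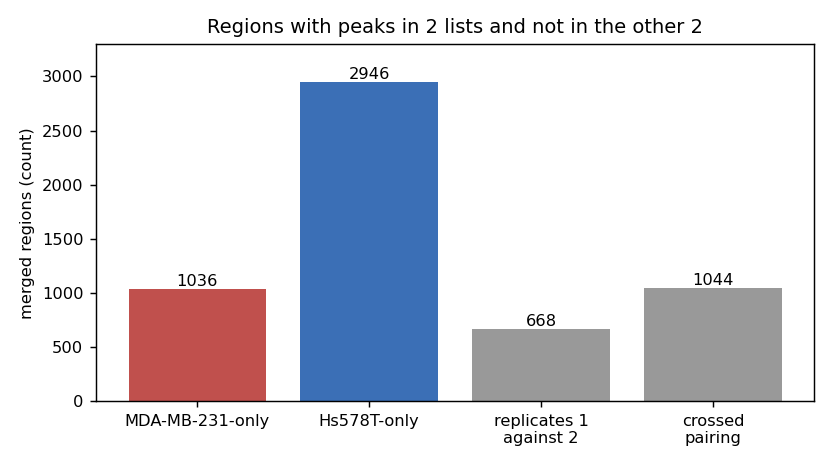
Number of merged regions (vertical axis, counts from 0) with a peak in 2 of the untreated control lists and in neither of the other 2. The coloured bars are the line-only regions, 1036 and 2946, and the grey bars are the pairings that mix the lines, 668 and 1044, each in both directions.

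In base pairs, the overlap of 2 lists divided by their union was 0.762 between the MDA-MB-231 replicates and 0.770 between the Hs578T replicates. Across lines it ran from 0.694 to 0.737, below both replicate pairs. By the same 2-against-2 rule, TWEAK against no treatment separated 11.3% of regions in MDA-MB-231 control cells and 10.0% in Hs578T control cells, and Fn14 knockout against control separated 4.78% and 4.52%. The lines differed in 7.93% of regions in TWEAK-treated control cells, 8.74% in untreated knockout cells and 10.7% in TWEAK-treated knockout cells. These contrasts share lists with one another, and their order was not tested.

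Line-only regions were narrow and weak beside the common ones. Their median width was 830 bp in MDA-MB-231 and 832 bp in Hs578T, against 1994 bp for regions in all 4 lists. Median fold enrichment was 3.20 and 3.43 in the MDA-MB-231 lists for MDA-MB-231-only regions, 3.31 and 3.19 in the Hs578T lists for Hs578T-only regions, and 6.19 to 7.03 for common regions. The weaker of the 2 peaks had a −log10 q under 2 in 44.4% of MDA-MB-231-only and 48.1% of Hs578T-only regions, against 8.51% of common regions. A fold enrichment of at least 5 in both lists was reached by 37 MDA-MB-231-only and 60 Hs578T-only regions.

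Line-only regions lay away from promoters. Within 2 kb of a protein-coding start site were 100 MDA-MB-231-only regions (9.65%) and 239 Hs578T-only regions (8.11%), against 33.9% of common regions. Regions found in 1 list only had 9.94% there, much the same as the line-only ones. Gene bodies held 44.3% of MDA-MB-231-only and 49.3% of Hs578T-only regions, and 46.0% and 42.6% lay between genes. On contigs not placed on a chromosome there were 52 MDA-MB-231-only regions and 2 Hs578T-only regions. These contigs carry no genes in the annotation used, so the 52 and the 2 are counted as between genes above. Each MDA-MB-231 list held 93 to 145 peaks on such contigs against 31 to 39 in each Hs578T list.

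The line-only regions were then looked up in the 12 lists that had played no part in choosing them. A peak over MDA-MB-231-only regions was found in 47.8% ± 8.42 (SD, n = 6) of them in the other MDA-MB-231 lists and in 22.97% ± 5.56 (SD, n = 6) in the other Hs578T lists. The difference of 24.8 percentage points gave p = 0.00926 in a two-sided exact permutation test within conditions, the smallest p this design allows. For Hs578T-only regions the share was 65.8% ± 4.69 (SD, n = 6) in the other Hs578T lists and 26.8% ± 8.18 (SD, n = 6) in the other MDA-MB-231 lists, and this difference of −39.0 points (MDA-MB-231 minus Hs578T) gave the same exact permutation p of 0.00926. In neither set did the 6 lists of one line overlap the 6 of the other. Hs578T lists cover more sequence, and the share of all regions with a peak in these lists is not given. How far list size enters the 2 differences was not tested. The untreated Fn14 knockout list of MDA-MB-231 replicate 1 stood highest among its line in both sets, at 61.8% and 42.9%. Choosing the MDA-MB-231-only regions without MDA-MB-231 replicate 1 brought the difference down to 9.66 points (exact permutation p = 0.0463), and choosing them without Hs578T replicate 2 to 15.4 points (exact permutation p = 0.0185).

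**Figure D2:**
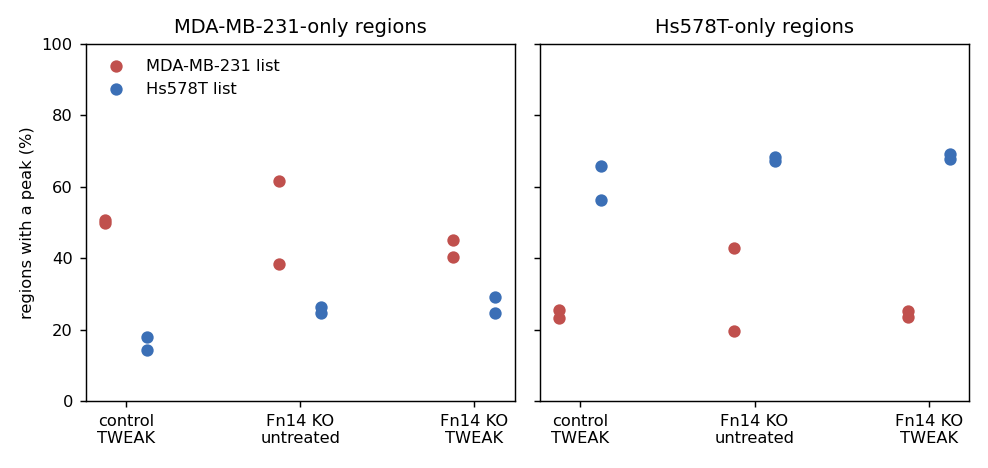
Share of line-only regions with a peak (vertical axis, percent) in each of the 12 lists not used to choose them, by condition, with 1 point per list and the lines in 2 colours. In the left panel the MDA-MB-231 lists lie between 38.5% and 61.8% and the Hs578T lists between 14.5% and 29.3%. In the right panel the Hs578T lists lie between 56.5% and 69.1% and the MDA-MB-231 lists between 19.8% and 42.9%.

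Few line-only regions were strictly of 1 line across the series. A peak in all 8 lists of the own line and none of the 8 of the other was found for 88 MDA-MB-231-only regions (8.49%), 27 of them on unplaced contigs, and 189 Hs578T-only regions (6.42%). In at least 1 of the other line's 6 remaining lists, 53.1% of MDA-MB-231-only and 59.9% of Hs578T-only regions had a peak.

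At start sites, the strict pattern held for 1 MDA-MB-231 region and 17 Hs578T regions. The MDA-MB-231 region was at HS3ST3B1 (chr17:14300608-14304054, fold enrichment 2.97 and 3.69), which encodes a heparan sulfate sulfotransferase. The strongest in Hs578T was at PRKAR1B (chr7:603188-605416), a regulatory subunit of protein kinase A, with 14.8 and 15.6. HOXB3, a homeobox factor of positional identity (5.97 and 5.74), PPARG, the nuclear receptor of fat cell formation (4.49 and 4.23), the growth factor gene FGF1 (3.44 and 4.07) and the laminin gene LAMA4 (3.19 and 3.94) were among the others. A peak in both Hs578T lists and neither MDA-MB-231 list also stood at the start of HOXA13 (chr7:27200436-27201593, 3.47 and 3.25), present in 5 of the 6 other Hs578T lists and 1 of the 6 other MDA-MB-231 lists. The promoter of HOXA13 is shown because it is that of the called transcription factor gene with such a region in most Hs578T lists. It is from RefSeq (GRCh38.p14, chr7:27200042-27200341, minus strand, 250 bases before to 50 after the start), and capitals would mark AP-1, TEAD, RUNX or ETS letters as above.
HOXA13: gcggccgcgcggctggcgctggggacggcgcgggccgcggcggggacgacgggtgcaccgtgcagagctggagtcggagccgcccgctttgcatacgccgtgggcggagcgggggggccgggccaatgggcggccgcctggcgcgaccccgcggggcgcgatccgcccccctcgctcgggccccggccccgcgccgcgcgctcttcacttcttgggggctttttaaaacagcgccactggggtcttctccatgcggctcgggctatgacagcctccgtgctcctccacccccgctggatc
None of these 4 motifs is in the window, whose GC content was 76.3%. The window does not overlap the Hs578T-only region at HOXA13, whose own bases are not shown. Over all 35116 RefSeq promoters the AP-1 letters were found in 7.71%, TEAD in 14.0%, RUNX in 4.27% and ETS in 10.3%.

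Some line-only regions stood side by side. The longest run of consecutive regions in which MDA-MB-231 had no peak held 10 regions, 5 of them Hs578T-only, at ZBTB7C and CTIF on chromosome 18. Hs578T had no peak in a run of 9 regions, 5 of them MDA-MB-231-only, at METRNL on chromosome 17, and in a run of 7, all MDA-MB-231-only, across PAPPA and ASTN2 on chromosome 9. By nearest start site within 100 kb, the muscarinic receptor gene CHRM3 had 9 Hs578T-only regions, FRMD3 8, the kinase gene CAMK2D 7 and the neurotrophin gene NTF3 6. In MDA-MB-231 the most was 4, at EVA1A.

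Among the 34960 regions with a peak in all 4 lists, enrichment was strongly correlated between the lines, but a small set stood far apart. Log2 fold enrichment correlated at Pearson r = 0.973 between the MDA-MB-231 replicates and 0.955 between the Hs578T replicates, and at 0.889 to 0.895 across lines, over regions that share a library and so are not independent. A difference of 2-fold or more with no overlap between the lines was found in 215 regions higher in MDA-MB-231 (0.615%) and 157 higher in Hs578T (0.449%). Pairings that mix the lines gave 0, 0, 1 and 0. This rule was added after the data had been seen.

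**Figure D3:**
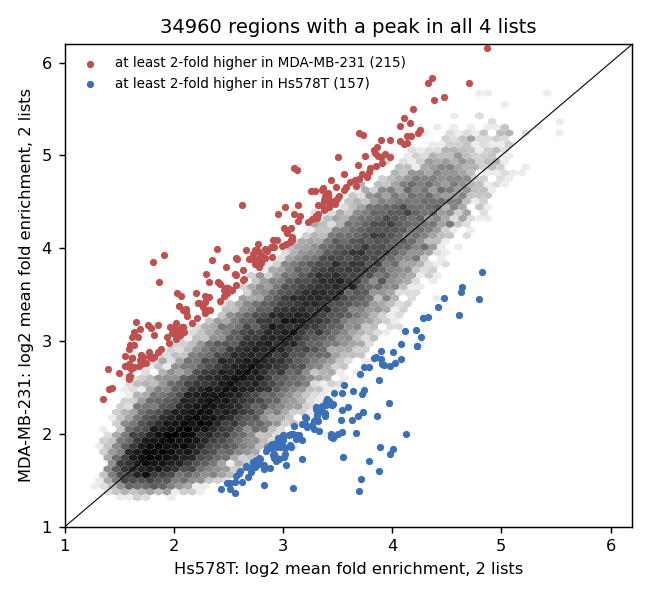
Log2 of the mean fold enrichment in the Hs578T lists (horizontal axis) and in the MDA-MB-231 lists (vertical axis) for the 34960 regions with a peak in all 4 lists, with the grey shade giving the density and the line marking equality. Coloured points are the 215 and 157 regions that differ by 2-fold or more without overlap.

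In the 12 other lists, all 6 of MDA-MB-231 stood above all 6 of Hs578T at 79 of the 215 (36.7%), against 1.91% of all shared regions, and the reverse held at 110 of the 157 (70.1%), against 7.43%. The median ratio there was 1.51 for the first set and 2.01 for the second. The sets differed in place. Start sites held 110 of the 215 (51.2%) and 13 of the 157 (8.28%), against 33.9% of all shared regions. Chromosome X held 68 and 1, against 951 of all 34960 shared regions.

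The largest of these in Hs578T lay in the body of FOXP1, a forkhead factor gene, with fold enrichment 2.51 and 2.71 in MDA-MB-231 and 12.2 and 13.8 in Hs578T, 4.97 times higher on average. The region at the start of TFF2, a trefoil peptide gene, had 4.66 and 3.32 against 19.3 and 15.7, which is 4.39 times. Regions near BMP10, in CYP20A1, in ARHGAP35, 204 kb from the start of CDH9, at the start of SPNS2 and in CDH4 were 4.08 to 4.85 times higher. In MDA-MB-231 the largest was at the start of PCYT1A, an enzyme of phosphatidylcholine synthesis, with 14.7 and 14.1 against 3.53 and 3.50, or 4.10 times. A region near TSPOAP1 had 15.4 and 14.9 against 4.48 and 3.05. Another between genes, 467 kb from the nearest start, that of the hyaluronan synthase gene HAS2, had 12.8 and 12.03 against 4.21 and 3.05. The starts of PABIR3 and MAMLD1, both on X, were 3.40 and 3.27 times higher. In the 12 other lists the lines overlapped at PCYT1A (lowest MDA-MB-231 value 6.54, highest Hs578T value 11.5), PABIR3 and MAMLD1, and did not overlap at the TSPOAP1 and HAS2 regions or at the 8 regions named for Hs578T.

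The differences in enrichment were not spread evenly over the chromosomes. Over 28337 regions with a peak in all 16 lists, 14 of 288 bins of 10 Mb differed between the untreated control lines by more than 0.3 on the log2 scale, 9 of them on chromosome 7 or X. The blocks below were drawn after that had been seen. On X from 110 Mb on, 239 such regions had a median fold enrichment of 11.3 and 14.2 in the MDA-MB-231 lists and 7.76 and 7.53 in the Hs578T lists. With each list centred on its own median this was a ratio of 1.62, and the first 100 Mb of X had a ratio of 1.05. The 10 Mb between them, in neither block, differed by 0.35 on the log2 scale, higher in MDA-MB-231. On chromosome 7 the first 30 Mb were 1.40 times higher in Hs578T, the next 20 Mb 1.25 times higher in MDA-MB-231, and the rest was at 1.00.

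The chromosome 7 blocks kept their order in every condition, and the X block did not keep its size. Relative to the mean of the 16 lists, the X block was at 0.40 to 0.47 on the log2 scale in the 4 MDA-MB-231 control lists, at 0.01 to 0.05 in the 4 MDA-MB-231 Fn14 knockout lists and at −0.28 to −0.16 in the 8 Hs578T lists. The first 30 Mb of chromosome 7 were at −0.29 to −0.20 in the 8 MDA-MB-231 lists and at 0.20 to 0.26 in the 8 Hs578T lists. DNA copy number was not measured here, so copies of a segment and acetylation per copy cannot be told apart.

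**Figure D4:**
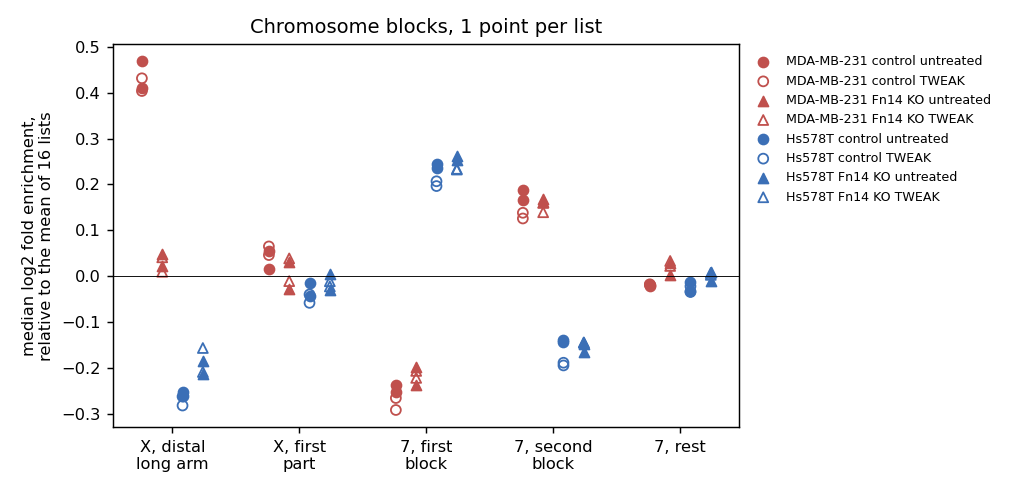
Median log2 fold enrichment of each list relative to the mean of the 16 lists (vertical axis) in blocks of chromosomes X and 7 (horizontal axis), over regions with a peak in all 16 lists, 1 point per list. The first part of X is its first 100 Mb, the X block starts at 110 Mb, and the rest of chromosome 7 is all beyond its second block. In the X block the MDA-MB-231 control lists lie at 0.40 to 0.47, the MDA-MB-231 Fn14 knockout lists at 0.01 to 0.05 and the Hs578T lists below 0.

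The 3 blocks held 2.83% of all regions and 9.85% of MDA-MB-231-only regions, and 2.53% of shared regions but 32.1% of those 2-fold higher in MDA-MB-231. Without them the line-only counts were 934 and 2850 and the 2-fold counts 146 and 129. MDA-MB-231-only regions made up 11.9% of the 506 regions of the X block and 10.8% of the second chromosome 7 block, and Hs578T-only regions 13.8% of the first.

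For genes, the length under peaks was summed over each protein-coding gene and 10 kb on either side, here called its locus (neighbouring or overlapping genes share peaks), and tested with limma on log2(kb + 0.5) in a fit over all 16 lists. Of 16017 loci tested, 117 had more covered length in MDA-MB-231 (0.73%) and 493 more in Hs578T (3.08%) at an adjusted p of 0.05 or less, so 80.8% of calls were higher in Hs578T. Scaling each list to the same total covered length gave 558 and 537, with 49.0% higher in Hs578T, and moved the median log2 difference of all loci from −0.09 to 0.05, so directions below are relative to a median of −0.09. Without MDA-MB-231 replicate 1 the calls were 78 and 108, without MDA-MB-231 replicate 2 60 and 835, without Hs578T replicate 1 43 and 157, and without Hs578T replicate 2 38 and 146. With the 4 lists alone limma called 0 loci, although 2066 had an unadjusted p of 0.05 or less. The calls therefore rest on the spread taken from the other 12 lists.

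Of the 117 loci higher in MDA-MB-231, the 6 other lists of that line all stood above those of Hs578T at 28 (23.9%), against 0.493% of all loci. Of the 493 higher in Hs578T, the reverse held at 229 (46.5%), against 8.03% of all loci. No called locus had the opposite order. These other lists were also in the limma fit and gave the spread behind the calls, which favours loci at which they vary little. The shares are therefore not an independent check of the calls, and how far the shared lists raise them was not tested. The X block, with 172 of the 16017 tested loci, held 36 of the 117 and none of the 493. The first chromosome 7 block, with 144 tested loci, held 44 of the 493 and none of the 117. The 3 blocks together held 2.52% of all tested loci, 35.0% of loci higher in MDA-MB-231 and 8.92% of loci higher in Hs578T. Leaving the blocks out, 76 and 449 remained.

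Among the loci with the largest differences higher in MDA-MB-231, PDE1C, a cyclic nucleotide phosphodiesterase, had 6.21 and 8.29 kb under peaks in MDA-MB-231 and 0 and 0 kb in Hs578T (log2 difference 3.94 ± 0.21 SE, limma adjusted p = 3.06e-06). It lies in the second chromosome 7 block. PAPPA, a protease that releases insulin-like growth factors from their binding proteins, had 22.4 and 30.1 kb against 1.30 and 1.57 kb (3.78 ± 0.21, limma adjusted p = 3.17e-06). MYT1, a zinc finger factor of neural development, had 4.52 and 5.50 kb against 0.23 and 0 kb, a log2 difference of 3.18. The actin-bundling gene LCP1 had 2.09 and 1.998 kb against 0 and 0 kb, or 2.35.

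HS3ST3B1 and HS3ST3A1, a pair of heparan sulfate sulfotransferase genes on chromosome 17, both had more in MDA-MB-231. HS3ST3B1 had 7.31 and 7.15 kb against 1.59 and 0.85 kb (log2 difference 2.20) and HS3ST3A1 2.97 and 3.43 kb against 0.40 and 0.24 kb (2.17). CPA1, a carboxypeptidase gene (2.37), and EVA1A (1.94) completed the loci that kept their call without each list in turn, and in these 8 the 6 other MDA-MB-231 lists lay above all 6 of Hs578T. ARHGEF6, an exchange factor for Rac (2.30), and SPRY3 (1.93), both in the X block, and VIPR2 (1.26) lost their calls in 1, 3 and 3 of the 4 fits that leave out an untreated list, with limma adjusted p up to 0.0511, 0.0570 and 0.1001. HECW1, a ubiquitin ligase gene in the second chromosome 7 block (0.63), was lost in each of the 4 such fits. CPA1 lost its call when loci were widened to 50 kb on either side (limma adjusted p = 0.061).

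Among the loci with the largest differences higher in Hs578T, STXBP6, a regulator of vesicle fusion, had 0 and 0 kb in MDA-MB-231 and 6.37 and 4.51 kb in Hs578T (log2 difference −3.55 ± 0.22 SE, limma adjusted p = 8.78e-06). In the 6 other MDA-MB-231 lists it was at 0 kb, and in the 6 other Hs578T lists it lay between 2.77 and 5.77 kb. NTRK2, the receptor of the neurotrophin BDNF, had 0 and 0 kb against 4.07 and 3.28 kb (−3.06 ± 0.19, limma adjusted p = 9.88e-06), but the other lists of the lines overlapped, at 0 to 5.52 kb in MDA-MB-231 and 1.40 to 6.45 kb in Hs578T. EID3 had 0.20 and 0.58 kb against 8.83 and 6.05 kb (−3.16), a call lost when only peaks with −log10 q of at least 2 were used.

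TRIM29, a gene of basal epithelium, had 0 and 0 kb against 2.61 and 3.37 kb (−2.79). ABCG1, a cholesterol exporter, had 0 and 0 kb against 4.08 and 2.26 kb (−2.83), and SLCO2A1, a prostaglandin carrier, 0 and 0 kb against 3.13 and 2.82 kb (−2.79). TSPAN8, a tetraspanin (−2.78), SH3GL3, an endophilin (−2.57), MDGA2 (−2.49) and DACT2, an antagonist of Wnt signalling (−2.43), followed, with at most 0.28 kb in the untreated control MDA-MB-231 lists. In the other MDA-MB-231 lists TRIM29 ran from 0 to 1.38 kb and TSPAN8 from 0.46 to 3.10 kb, overlapping the 1.23 to 4.26 kb and 2.71 to 6.24 kb of the other Hs578T lists, and SLCO2A1 and MDGA2 overlapped too. FRMD3, PREX1 and CHRM3 below and all loci named so far for Hs578T kept their calls without each list in turn, but ABCG1 and SLCO2A1 lost them with peaks of −log10 q of at least 2. FRMD3 had 2.03 and 3.40 kb against 14.8 and 13.1 kb (−2.20), PREX1, an exchange factor for Rac, 1.92 and 2.24 kb against 8.20 and 7.97 kb (−1.74), and CHRM3 19.0 and 22.0 kb against 44.9 and 42.1 kb (−1.07). CAMK2D (−0.88), NTF3 (−1.67), RAPGEF6 (−1.04) and TIAM1 (−0.63) lost their calls in 3, 3, 1 and 3 of the 4 fits that leave out an untreated list.

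**Figure D5:**
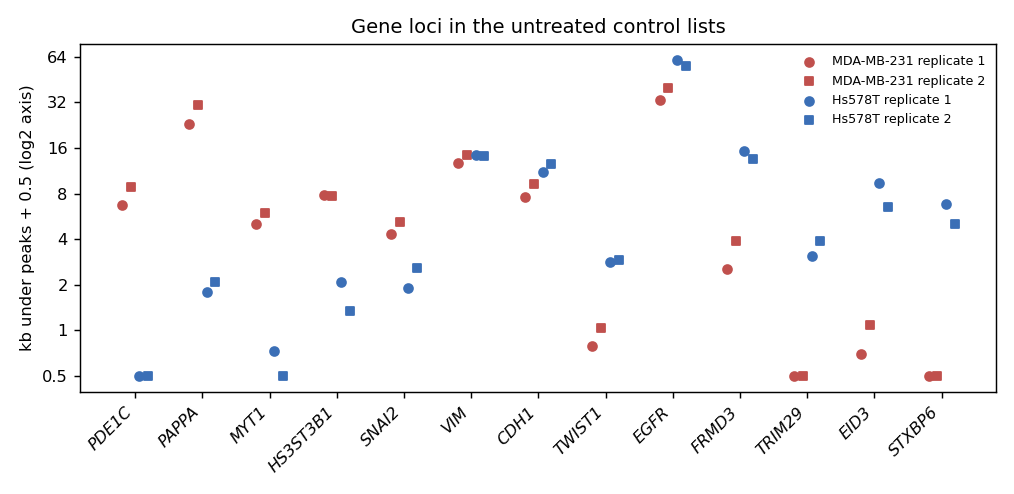
Length under peaks plus 0.5 kb (vertical axis, log2 scale) over 13 gene loci in the 4 untreated control lists, 1 point per list. VIM lies at the same level in both lines, PDE1C and PAPPA are higher in the MDA-MB-231 lists, and STXBP6 and TRIM29 are at 0.5, meaning no peak, in MDA-MB-231.

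Symbols matching the transcription factor families searched were found at 544 tested loci, some by letters only. Of these 4 were called higher in MDA-MB-231 (0.735%, against 0.73% of all loci) and 15 higher in Hs578T (2.76%, against 3.08%), of which 1 and 11 are transcription factor genes. The one in MDA-MB-231 was SNAI2, a repressor of epithelial genes, with 3.82 and 4.72 kb against 1.41 and 2.08 kb (log2 difference 1.10, limma adjusted p = 0.0214). In the other lists the lines overlapped, and the call was lost in 3 of the 4 fits that leave out an untreated list (adjusted p up to 0.155). TWIST1, another inducer of mesenchymal state, had 0.29 and 0.53 kb in MDA-MB-231 against 2.33 and 2.40 kb in Hs578T (−1.67, limma adjusted p = 0.0262). All 6 other Hs578T lists lay above the other MDA-MB-231 lists, but the call was lost in 3 of the 4 such fits (adjusted p up to 0.185), and TWIST1 lies in the first chromosome 7 block, as does HOXA13.

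TCF23 (0 and 0 kb against 1.62 and 1.47 kb, log2 difference −2.03), NFILZ (−1.63), HOXA13 (0 and 0 kb against 0.93 and 1.16 kb, −1.62) and FOXR1 (−1.57) were also higher in Hs578T and kept their calls without each list in turn, of which FOXR1 lost its call with peaks of −log10 q of at least 2. HOXD8 (−1.31), ATF6B (−0.69), KLF3 (−0.49), GLI2 (−0.46) and HOXD3 (−0.45) lost theirs in 1, 3, 3, 4 and 4 of the 4 fits. MEF2A was the eleventh.

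The lineage lists showed little separation, and their counts stand against 0.73% of all loci called higher in MDA-MB-231 and 3.08% higher in Hs578T, which is 80.8% of all calls (49.0% after scaling). Calls said to be lost below were lost when 1 of the 4 untreated lists was left out, with the number of those 4 fits given. Of 24 tested epithelial loci (of 25), 0 passed in either direction in limma, with a median log2 difference of −0.17 against −0.09 for all loci. The adhesion gene CDH1 had 7.11 and 8.72 kb against 10.5 and 12.1 kb (−0.49, limma adjusted p = 0.147), and EPCAM was at 5.26 and 7.11 kb against 5.99 and 6.24 kb. Of 19 tested mesenchymal loci (of 21), SNAI2 was higher in MDA-MB-231 and TWIST1 in Hs578T, with a median of −0.11. The intermediate filament gene VIM had 12.2 and 13.9 kb against 13.9 and 13.6 kb, ZEB1 5.32 and 5.51 kb against 6.21 and 5.86 kb, and FN1 10.2 and 12.2 kb against 8.81 and 8.32 kb. None of VIM, ZEB1 and FN1 passed the test.

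Luminal markers held 3 calls among 13 tested of 16 (median −0.19), each in the direction of most calls over all loci, higher in Hs578T. The trefoil genes TFF3 (0 and 0.64 kb against 3.36 and 3.65 kb, log2 difference −2.40) and TFF1 (1.29 and 1.08 kb against 2.97 and 3.09 kb, −1.07) kept their calls without each list, and their loci stand beside TFF2 on chromosome 21, so that neighbouring windows can share peaks. AGR2 (4.14 and 5.08 kb against 7.06 and 8.32 kb, −0.68), in the first chromosome 7 block, lost its call in 2 fits. The estrogen receptor gene ESR1 did not pass, GATA3 did not pass at 7.35 and 7.40 kb against 6.05 and 5.66 kb, and FOXA1 was at 0 kb in all 4 lists.

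Basal markers held 3 calls of 16 tested of 20 (median −0.19), all higher in Hs578T: TRIM29, ITGA6, a laminin receptor (17.4 and 19.0 kb against 24.3 and 25.9 kb, −0.46) and EGFR, the epidermal growth factor receptor (32.5 and 39.3 kb against 60.6 and 55.4 kb, −0.69, limma adjusted p = 0.0243). The ITGA6 and EGFR calls were lost in 3 fits each, as was that of MERTK named next, and that of PDGFRA in 2. Keratin loci KRT5, KRT14, KRT6A and KRT6B were in the group not tested for lack of peaks. Receptor tyrosine kinases had the lowest list median, −0.34 over 21 tested of 28, with 0 calls higher in MDA-MB-231 and 4 higher in Hs578T: NTRK2, EGFR, PDGFRA (0.48 and 0.85 kb against 1.48 and 1.96 kb, −0.94) and MERTK (−0.50). AXL, at 20.9 and 24.5 kb against 21.8 and 19.8 kb, did not pass.

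Fibroblast and matrix loci had 1 call, PDGFRA, among 24 tested of 28 (median −0.12), and COL1A1, the main fibrillar collagen, had 5.46 and 6.17 kb against 5.44 and 5.69 kb. Contractile loci (14 tested of 16, median 0.12) had ACTA2, smooth muscle actin, higher in Hs578T (0.21 and 0.89 kb against 2.43 and 1.65 kb, −1.34) and FLNA, in the X block, higher in MDA-MB-231 (0.63). The ACTA2 call was lost in 3 fits and the FLNA call in all 4. The AP-1 and YAP/TEAD list had no call in 23 (median 0.01), with FOSL1 at 23.1, 23.5, 23.3 and 22.9 kb. Inflammatory loci had 1 call in 24 of 25, CSF2, a granulocyte-macrophage growth factor, higher in Hs578T (−0.81, lost in 3 fits), and TNFRSF12A, which encodes Fn14, was at 4.50 and 4.67 kb against 4.67 and 4.93 kb.

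HOX loci had 3 calls in 30 tested of 39, all higher in Hs578T (median −0.10), namely HOXA13, HOXD8 and HOXD3. Few markers of other cell types were called. Neural and melanocytic loci had no call in 8 tested of 18 (median −0.03), endothelial loci 1, PECAM1, in 7 of 12 (median −0.17), and blood loci 1, CD3E, in 12 of 16 (median −0.01), both higher in Hs578T. PECAM1 lost its call in 3 fits. CD3E had 0 and 0 kb against 2.05 and 2.07 kb, with the other lists overlapping. PTPRC, a gene of blood cells, had 16.8 and 19.2 kb against 18.7 and 21.6 kb. Of 18 housekeeping loci HPRT1, in the X block, was higher in MDA-MB-231 (0.88, lost in all 4 fits), with a median of 0.04.

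Large domains are peaks joined over gaps of up to a fixed length whose covered length lies past the bend of the ranked curve, and most were common too. Of the 1305 and 1251 in MDA-MB-231 and 1375 and 1208 in Hs578T, 71 were particular to MDA-MB-231 and 92 to Hs578T in both replicates, sharing under 5 kb with large domains of the other line. Even so, the other line had a median of 82.4% and 70.6% of the covered length there, 8.90 kb of 10.7 kb for the first set and 8.46 kb of 11.9 kb for the second. The one with most covered length in Hs578T lay at DPYSL2, a gene of axon growth, with 12.9 and 16.8 kb in MDA-MB-231 against 26.5 and 29.3 kb in Hs578T, followed by RAD51B and DNAJB6. In MDA-MB-231 the first 3 lay on unplaced contigs, and the fourth at ACSL4 on X had 11.7 and 19.2 kb against 5.82 and 5.58 kb.

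Sequence under the line-only regions was much alike. In the central 500 bases of distal regions the AP-1 letters were found in 42.6% of MDA-MB-231-only (95% exact interval 39.4 to 45.9), 44.7% of Hs578T-only (42.8 to 46.6) and 43.1% of all distal regions. TEAD letters were found in 30.7%, 29.96% and 31.6%. RUNX letters were in 17.2% of MDA-MB-231-only regions (14.8 to 19.8) and 12.7% of Hs578T-only regions (11.5 to 14.0), with 14.8% in all. Forkhead letters (TGTTTAC) went the other way, 8.55% (6.84 to 10.5) and 12.1% (10.9 to 13.4), with 9.79% in all, and ETS letters were at 4.27%, 2.33% and 2.63%. Median GC content was 44%, 43.8% and 44%. Each share covers counting error only, regions of one line share their libraries, and RUNX, forkhead and ETS were the ones among 20 motifs searched on both strands whose intervals did not overlap between the lines.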

How the data were processed

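The data were 16 lists of H3K27ac ChIP-seq peaks, 2 for each of 8 groups. Per the labels and the study's methods, the authors trimmed reads with Trimmomatic, used Bowtie2 for mapping to hg38 and MACS2 for peaks over input, and removed blacklisted regions with bedtools (versions not given in the sources used here, deepTools also named). The lists were called per sample. The deposited fold enrichment (a ratio) is the peak's mean signal over its local background, and the deposited −log10 p and −log10 q values give its significance. The deposited score is 10 times the −log10 q without decimals, and was not used. No read counts are in the lists, so depth is unknown. All 705670 peaks lay within hg38 sequences.

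Peaks of the 4 untreated control lists were merged at 1 bp. A region's fold enrichment in a list is the highest of its peaks there. Start sites and genes are those of the reference annotation, with 2 kb as near. Peaks up to 12.5 kb apart were joined into large domains, which are line-specific when large in both replicates and sharing under 5 kb with large domains of the other line. Genes that had peaks in 2 or more lists entered limma 3.58.1 (R 4.3.3) on log2(covered kb + 0.5), with a mean for each of the 8 groups, Benjamini-Hochberg adjusted, the test having been tested on simulated data. Lists of peaks were compared with exact permutation tests that exchange lines within conditions. Other tools were Python 3.11.15, numpy 2.4.6, pandas 2.3.3, scipy 1.17.1 and matplotlib 3.10.9. Motif letters were searched in the central 500 bases of regions over 2 kb from a start site. Intervals are exact binomial at 95%.

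Named genes were, per line, the 10 nearest to the most line-only regions, the 10 with the largest limma difference, the 10 such transcription factor genes by symbol start (after 7 called genes matching by letters only were set aside), up to 4 called members of each gene list per direction with defining members, and the 3 line-specific large domains with most covered length. The NFILZ promoter also met the rule for printed promoters and is not shown. A few items that met these rules are not reported here. The members, lists and rules were chosen with earlier results of these data known. Alternatives were a stricter q, 50% coverage, equal peak numbers, all 16 lists merged, other windows, pseudocounts, filters and scaling, the replicate block, and leaving out lists. The rules on shared regions and chromosome blocks were added after the data had been seen.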

Additional observations from a re-analysis of the deposited data

Results flagged for a closer look

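TSPAN8, a tetraspanin gene, was the 1 named locus that passed a test for a line difference that changed with treatment. In untreated control cells the log2 difference in covered length (MDA-MB-231 minus Hs578T) was −2.78, and in TWEAK-treated control cells −0.88, so that untreated minus TWEAK was −1.89 ± 0.27 (SE) (limma interaction term, adjusted p = 0.0408). The TWEAK-treated lists held 3.10 and 2.80 kb in MDA-MB-231 and 5.49 and 6.24 kb in Hs578T, against 0 and 0.28 kb and 3.94 and 3.63 kb without TWEAK. Of the 16017 loci, 9 passed this test, 3 of them among the loci called in untreated cells. The test was chosen after the data had been seen. It reuses the untreated values by which TSPAN8 was named, which favours a smaller difference under TWEAK. Loci that did not pass may still have changed.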

How the results depend on the processing

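Leaving out each untreated control list in turn gave 1477 to 3210 MDA-MB-231-only and 3351 to 6084 Hs578T-only regions, start-site shares of 9.75 to 12.9% and 8.02 to 9.33%, 91 to 148 and 124 to 183 line-specific large domains, AP-1 shares of 35.4 to 43.6% and 38.7 to 46.2%, 185 to 378 and 122 to 311 shared regions with a 2-fold difference, and 38 to 78 and 108 to 835 called loci. A line with 1 list left needs a peak in that list only, which raises the region counts by construction, and in limma the lone list is assumed to vary like the other groups. Trimmed to equal peak numbers, Hs578T-only regions fell to 1760, the start-site share of MDA-MB-231-only regions was 11.7% and the AP-1 share of Hs578T-only regions 46.9%. Start-site shares were 11.96% for MDA-MB-231 with −log10 q of at least 2, 14.5% and 10.9% at 50% coverage, 7.72% and 5.63% within 1 kb, and 18.5% and 15.1% within 5 kb. The difference in the number of large domains was −130.5 with −log10 q of at least 2 (exact permutation, adjusted p = 0.0293). Joining at 5 kb gave 165 Hs578T-specific domains. Called loci were 0 and 0 with the 4 lists alone, 558 higher in MDA-MB-231 after scaling, 752 higher in Hs578T with 50 kb on either side, and 76 higher in MDA-MB-231 without the 3 chromosome blocks. Except where the construction is stated, the cause was not tested. No tested difference in the measures per list or in the shares of line-only regions changed direction under any alternative run. Of 59 named loci run through the alternatives, 0 changed direction where the main or the alternative fit called them. Uncalled members of the gene lists were run only if another rule named them. The lean of the called loci to Hs578T (80.8%) was not kept after scaling (49.0%). The share of line-only regions found again in the other lists kept its side of the threshold under every alternative, by 9.66 to 26.7 points for MDA-MB-231-only and −42.2 to −26.3 points for Hs578T-only regions.

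Of the 54 named loci that were called, 28 kept the call without each list in turn and 26 lost it at least once. The call was lost in 16 with −log10 q of at least 2, 7 with 50 kb on either side, 6 without the filter, 4 after scaling and all 54 with the 4 lists alone.

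Replicate numbers do not pair the lists. Over 28 pairs of groups the correlation of same-numbered deviations ran from −0.171 to 0.0889 (median 0.00187), and it was −0.066 for the untreated groups. With the replicate number as a block, limma called 96 and 373 loci, 5 of the 54 named calls were lost, and the exact permutation p of both shares of line-only regions was 0.0312, the smallest this block allows. The differences in the 4 measures per list are the same with the block by construction. Their exact permutation adjusted p with the block was 0.0312 for peak number, covered length and start-site share, and 0.109 for large domains.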

Other observations

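No list of either line held a peak over 4.34 Mb of the short arm of chromosome 9 (chr9:20756614-25094378, hg38), which holds 24 protein-coding genes. Among them are the cell cycle inhibitor genes CDKN2A and CDKN2B, the methylthioadenosine phosphorylase gene MTAP and the type I interferon genes. The stretch ran from 20756449 to 25094383 in the 8 MDA-MB-231 lists and from 20756614 to 25094378 in the 8 Hs578T lists. Its ends are the edges of the nearest peaks, and these nearly coincide between the lines. Most regions were common to the lines, and other stretches without peaks are not given for comparison. DNA copy number was not measured here, and peak lists hold no genotypes with which to check the identity of the lines.

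The untreated Fn14 knockout list of MDA-MB-231 replicate 1 held 46295 peaks, and replicate 2 of the same group 39544, the widest gap between replicates of that line.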
